A study of Mus musculus with 24 samples.

Results

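The nuclear genes of oxidative phosphorylation were followed through a set of 24 mRNA libraries from mouse embryonic stem cells (ESCs). Members were taken by name, as the symbols of complex I subunits and assembly factors (*Nduf*), complex II (*Sdha* to *Sdhd*), complex III (*Uqcr*), complex IV (*Cox4* to *Cox8*) and the ATP synthase (*Atp5*), with at least 1 CPM (its counts per 1000000 counts assigned in a library) on average over the 24 libraries. Of 98 symbols that matched, 91 were members, out of 26264 genes in the table and 12331 genes at or above 1 CPM. The 7 left out were *Cox4i2*, *Cox6a2*, *Cox7b2*, *Cox7c-ps1*, *Cox8b*, *Cox8c* and *Ndufa11b*, which include the muscle, lung and testis forms of several complex IV subunits. The members comprised 47 genes of complex I, 4 of complex II, 8 of complex III, 15 of complex IV and 17 of complex V. All 91 passed the low-count filter of every fit.

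Oxidative phosphorylation takes electrons from NADH at complex I and from succinate at complex II, passes them through ubiquinone, complex III and cytochrome c to oxygen at complex IV, and uses the proton gradient built on the way to drive ATP synthase, or complex V. Apart from complex II, each complex joins nuclear subunits made in the cytosol with a few subunits encoded by mitochondrial DNA, so the nuclear genes are expressed alongside a separate genome. Mouse ESCs draw on glycolysis as well as on respiration, and the balance shifts as they leave the pluripotent state. The subunits encoded by mitochondrial DNA were not analysed here.

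The cells were 2 monoclonal mouse ESC lines made with CRISPR-Cas9 and grown in serum with LIF on gelatin, both with stable overexpression of TIR1, the plant receptor that directs degron-tagged proteins to the proteasome in the presence of the auxin IAA. In the BAP1-AID line an HA-AID degron sits at the C terminus of BAP1, the H2AK119 deubiquitinase, and in the UTX-AID line it sits at the N terminus of UTX (*Kdm6a*), the H3K27 demethylase. Each line was kept without IAA or pretreated with IAA for 2 h, and was collected at 0, 3 or 6 h of retinoic acid (RA). This gave 12 groups of 2 replicates. RA was given without LIF, and the sources do not say whether the cells at 0 h still had LIF. RA, loss of LIF and time in culture therefore cannot be told apart between RA times. In the arm with IAA, the same holds for the time since IAA was added. The lines are 1 clone each, so the tag, the clone and any difference in handling cannot be told apart in a comparison of the lines. The labels do not say whether replicates were separate cultures, so the p-values measure only the spread between these samples, which may be technical. In bulk RNA, fewer cells of a type and less RNA per cell cannot be told apart.

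Libraries held 42018795 to 54034789 assigned counts, and every member had at least 95 counts in every library, against a floor of 3 counts at 0.0555 to 0.0714 CPM. In BAP1-AID without IAA, replicate 1 at 0 h and replicate 1 at 3 h stood apart from the other libraries of the line. In these libraries 83 and 84 of the 91 members were above the mean of the BAP1-AID line, and the deviation of each gene from that mean went with transcript length at a Spearman's rho of -0.31 and -0.43 over 12083 genes. The deviation from the mean of each library's own line went with GC content, at a rho between 0.21 and 0.45 in BAP1-AID without IAA, between -0.50 and -0.26 with IAA, and between -0.21 and 0.13 in UTX-AID. Results for BAP1-AID are given with and without these 2 libraries, and with the counts adjusted for the GC content and length of each transcript, called the correction here. The members *Atp5md*, *Atp5mpl* and *Atp5o* had no matched transcript, so the correction left their counts unadjusted. Without these 2 libraries, BAP1-AID without IAA holds 1 library at 0 h and 1 at 3 h. Leaving out any single library also leaves 1 in its group. The spread in such fits comes from the other groups, so their counts of members passing are description and not further support. No share of all genes is given for the corrected fits or for those leaving out single libraries, so these counts cannot be set against all genes. The 10 ESC markers summed to 4134 to 5275 CPM in BAP1-AID and 4537 to 5097 CPM in UTX-AID. The 8 fibroblast markers summed to 7.24 to 14.1 and 2.72 to 8.18 CPM, with *Postn* at 0 in every library, and the 8 endoderm markers, led by *Lamb1*, summed to 89.4 to 150.2 and 30.1 to 52.7 CPM. *Bap1* mRNA in BAP1-AID was 94.5 to 104.5 CPM without IAA and 90.6 to 102.3 CPM with it, and *Kdm6a* mRNA in UTX-AID was 96.1 to 111.7 and 108.7 to 126.2 CPM, which does not check the loss of the proteins.

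First, the overall level of the members was examined. They took 1.10 to 1.60% of all assigned counts. The share in BAP1-AID without IAA ran from 1.33 to 1.60% with a median of 1.38%, in BAP1-AID with IAA from 1.28 to 1.301% with a median of 1.29%, and in UTX-AID from 1.10 to 1.17% with a median of 1.13%. Every BAP1-AID library was thus above every UTX-AID library. The libraries at 1.52% and 1.60% were the ones that stand apart, and the other 4 without IAA lay at 1.33 to 1.39%, still above all 6 with IAA. In groups, the share was 1.45% ± 0.0955 (SD, n = 2) in BAP1-AID without IAA at 0 h and 1.295% ± 0.00452 (SD, n = 2) with IAA, against 1.14% ± 0.00578 (SD, n = 2) and 1.12% ± 0.0279 (SD, n = 2) in UTX-AID. ATP synthase made the largest part, at 0.59 to 0.75% in BAP1-AID and 0.47 to 0.50% in UTX-AID, and complex I came next, at 0.30 to 0.39% and 0.28 to 0.30%. The gap between the lines was smaller without the ATP synthase genes *Atp5a1* and *Atp5b*. The other 89 members took 0.95 to 1.18% in BAP1-AID (median 0.96%) and 0.87 to 0.93% in UTX-AID (median 0.90%), still without overlap.

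**Figure D1:**
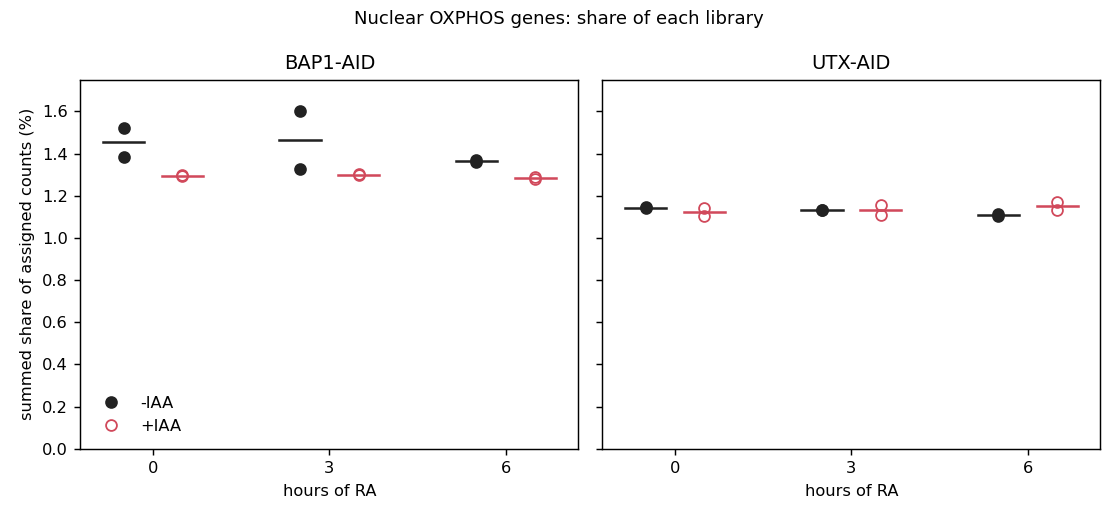
Share of all assigned counts (%) held by the 91 nuclear genes of oxidative phosphorylation in each library, by hours of RA, clone and IAA arm. Each point is a library and each short line marks the mean of a group of 2 replicates. All BAP1-AID libraries lie above the UTX-AID libraries, which reach 1.17%, and the highest points, 1.52% and 1.60%, are the replicates 1 without IAA at 0 and 3 h.

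Within the complexes, levels per length spread widely over the 88 members with a canonical transcript in GENCODE vM39. *Atp5b*, the catalytic beta subunit of ATP synthase, was highest, with a mean of 931 CPM per kb of that transcript (1793 CPM). It was followed by the complex IV subunits *Cox7c* at 554 and *Cox4i1* at 476 CPM per kb, and by *Atp5a1*, the alpha subunit, at 475 CPM per kb. In complex III, the small subunit *Uqcr10* reached 356 CPM per kb and the core subunit *Uqcrc1* 141 CPM per kb. *Sdhd*, a membrane anchor of complex II, lay at 110.5 CPM per kb and *Sdha*, its flavoprotein, at 74.0. In complex I, *Ndufa7* stood at 214 and *Ndufa9*, which took the most counts of the complex, at 140.0 CPM per kb.

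Subunits with tissue forms were read mainly from the ubiquitous form. *Cox6b2*, the testis form of a complex IV subunit, lay at 23.9 CPM per kb beside 286 for *Cox6b1*. *Cox7a1*, the form of heart and skeletal muscle, lay at 9.81 CPM per kb beside 144 for *Cox7a2*. *Ndufa4l2*, a paralog known as a hypoxia-responsive gene, lay at 6.30 CPM per kb beside 282.5 for *Ndufa4*, which associates with complex IV. The lung form *Cox4i2* averaged 0.40 CPM and stayed below the minimum. The 3 genes of the ATP synthase c-ring encode the same mature protein and were all expressed, at 165 CPM per kb for *Atp5g1*, 331.5 for *Atp5g2* and 273 for *Atp5g3*.

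In 16 members, at least 50% of the transcript has another near-identical place in the genome (95% identity or more), and their counts are uncertain where the counting split reads. *Ndufs5-ps*, a pseudogene copy, was listed at 90.6 CPM per kb and its parent *Ndufs5* at 20.4 CPM per kb. *Cox8a*, *Cox5b*, *Cox7c*, *Uqcrb* and the c-ring genes *Atp5g1* and *Atp5g2* are among the 16.

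Promoter sequence was read for the 75 members with an entry in the RefSeq promoter table (GRCm38.p6, 250 bases before to 50 after the gene start), to show the motifs of factors known to act on respiratory genes. The motif of NRF1, a regulator of nuclear genes for mitochondria, was searched as GCGCANGCG on both strands, as were the others. It had a match in 22 of 75 members (29.3%), against 7.03% of all 27025 genes with a window and 15.8% of the 9847 at or above 1 CPM. A gene with windows at several starts was counted once, if any of them matched. The YY1 motif AAGATGGCG was held by 8 members (10.7%), against 1.64% and 3.72%. The ETS motif CCGGAAGT, which GABPA binds, was held by 5 members (6.67%), against 4.31% and 9.39%. The ERR motif TCAAGGTCA was held by 2 members (2.67%), against 0.466% and 0.315%. One window is shown for each motif and, for NRF1, one for each of complexes I, II, IV and V and for a complex I assembly factor. Capitals mark the motif, and sequences run 5′ to 3′ on the strand of the gene, or show the motif's reverse complement where it lies on the other strand.
Ndufa8 (complex I, NRF1, chr2:36049348-36049377, minus strand): tagagcagtgCGCTTGCGCgtcgctggaga
Ndufaf4 (complex I assembly factor, NRF1, chr4:24897960-24897989, plus strand): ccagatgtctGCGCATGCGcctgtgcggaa
Sdha (complex II, NRF1, chr13:74350319-74350348, minus strand): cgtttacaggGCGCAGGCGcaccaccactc
Cox6a1 (complex IV, NRF1, chr5:115349101-115349130, minus strand): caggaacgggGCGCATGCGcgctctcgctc
Atp5c1 (complex V, NRF1, chr2:10080433-10080462, minus strand): cgcctgagctcccGCGCACGCGcactgagt
Uqcrh (complex III, ETS, chr4:116075071-116075100, minus strand): actacgaggagtatgccgcACTTCCGGcca
Atp5g3 (complex V, ERR, chr2:73911359-73911388, minus strand): tgttacaaagTGACCTTGAgcgtcttcccc
Atp5j (complex V, YY1, chr16:84835045-84835074, minus strand): aagtgtaggaAAGATGGCGgagtcttagct
The NRF1 match was held by 10 of 40 members of complex I with a window, 2 of 3 of complex II, 2 of 5 of complex III, 1 of 12 of complex IV and 7 of 15 of complex V.

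**Figure D2:**
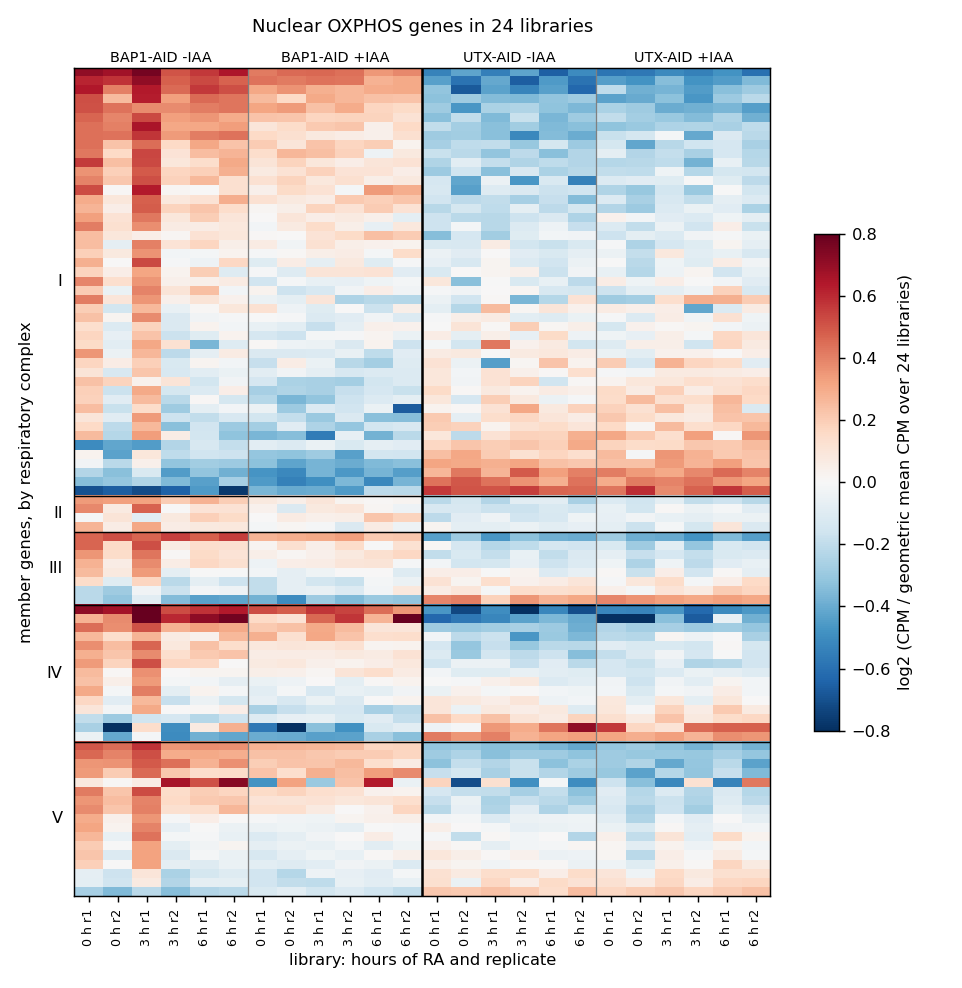
Level of each of the 91 members in each of the 24 libraries, as log2 of its CPM over its geometric mean across all libraries (color scale from -0.8 to 0.8), with members grouped by complex and ordered by the clone difference. The step between the BAP1-AID and the UTX-AID columns is the main pattern, and the replicates 1 of BAP1-AID without IAA at 0 and 3 h are high in most rows.

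The 2 lines were compared over all arms and times to see how the members differ between clones. In BAP1-AID 53 members were higher and 23 lower than in UTX-AID (edgeR's quasi-likelihood test, Benjamini-Hochberg adjusted p below 0.05), which is 83.5% of members where 74.9% of all genes passed, 36.3% of them higher and 38.6% lower. The median log2 difference was 0.17 over members and -0.07 over all genes tested. All 12 BAP1-AID libraries were above all 12 UTX-AID libraries for 34 members and below them for 9, while 15.8% and 17.4% of all genes separated in these directions. Only *Cox8a*, *Ndufb8* and *Ndufa4l2* also differed by more than 1 on the log2 scale, where 26.5% of all genes did so.

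The members were then taken by role and by complex, in this same comparison where 36.3% of all genes were higher and 38.6% lower. Of the 7 core subunits of complex I, which carry the flavin and the iron-sulfur clusters, 5 were higher and 1 was lower, with a median log2 difference of 0.71. *Ndufv1*, the subunit that binds NADH and FMN, was 231 CPM at the lowest, 261 at the median and 311 at the highest in BAP1-AID. The same values in UTX-AID were 121, 139 and 150.3 CPM. The groups did not overlap, with a log2 difference of 0.98 ± 0.03 (SE, adjusted p = 7.49e-18). *Ndufs3* (0.71), *Ndufs8* (0.71) and *Ndufs7* (0.87) were higher as well on the log2 scale. *Ndufs1*, the largest core subunit, was the one that was lower, at -0.37 ± 0.03 (SE, adjusted p = 4.05e-11), and at -0.09 after the correction (adjusted p = 0.00108). Among 30 accessory subunits of complex I, 18 were higher and 7 lower (median 0.18). *Ndufb8*, on chromosome 19 at 44537011 to 44543939 (GRCm39), was 156 to 209 CPM with a median of 171 in BAP1-AID and 77.9 to 91.7 CPM with a median of 84.4 in UTX-AID. Its log2 difference was 1.10 ± 0.04 (SE, adjusted p = 7.45e-18).

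The assembly factors of complex I had a median of -0.07, the same as that of all genes tested. Of 8, only *Ndufaf1* was higher, and *Ndufaf2*, *Ndufaf4*, *Ndufaf5* and *Ndufaf7* were lower, where 36.3% of all genes were higher and 38.6% lower. *Ndufaf4* was 24.1 to 35.5 CPM with a median of 29.9 in BAP1-AID and 53.3 to 61.8 CPM with a median of 57.7 in UTX-AID, with a log2 difference of -0.96 ± 0.04 (SE, adjusted p = 5.77e-17). After the correction its difference was 0.11, so the direction of *Ndufaf4* turned with that choice. *Ndufaf2* was 12.8 to 15.8 CPM against 22.8 to 26.4 CPM, with medians of 14.52 and 24.72, and its log2 difference was -0.74 ± 0.04 (SE, adjusted p = 1.09e-13). Its corrected difference was -0.59. The correction ended the call of *Ndufaf5* (-0.12, adjusted p = 0.146) and turned *Ndufaf7* (0.29), so that 3 assembly factors were higher and 2 lower after it.

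All 4 genes of complex II were higher in BAP1-AID, by log2 differences from 0.16 for *Sdhd* to 0.36 for *Sdhc*. After the correction 3 of them passed, and *Sdhb* had -0.07 (adjusted p = 0.21). In complex III, 5 of 8 were higher and 3 lower, where 36.3% of all genes were higher and 38.6% lower. After the correction these counts were 6 and 1. *Uqcrc1*, a core subunit, was 260 to 330.0 CPM with a median of 296 in BAP1-AID and 162 to 185 CPM with a median of 171 in UTX-AID (log2 difference 0.81 ± 0.03 SE, adjusted p = 5.22e-17). *Uqcrfs1*, the Rieske iron-sulfur protein, was 66.6 to 89.0 CPM with a median of 75.0 against 107 to 125 CPM with a median of 118. It was lower by a log2 difference of -0.62 ± 0.03 (SE, adjusted p = 1.1e-13), which was -0.14 after the correction (adjusted p = 0.000214), where *Uqcrc1* had 0.60.

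In complex IV, 9 of 15 members were higher and 4 lower, where 36.3% of all genes were higher and 38.6% lower. *Cox8a*, a small membrane subunit, showed the largest log2 difference of any member, 1.17 ± 0.04 (SE, adjusted p = 7.68e-18). Its libraries ran from 150 to 204 CPM with a median of 172.5 in BAP1-AID and from 67.6 to 85.5 CPM with a median of 81.8 in UTX-AID. *Cox4i1*, the subunit with the highest level in the complex, was 390 to 520 CPM with a median of 446 against 278 to 310.3 CPM with a median of 299.9. The paralogs *Ndufa4* and *Ndufa4l2* stood on opposite sides. *Ndufa4* was 102.5 to 144 CPM with a median of 110.0 in BAP1-AID and 175 to 193.5 CPM with a median of 182 in UTX-AID, a log2 difference of -0.63 ± 0.05 (SE, adjusted p = 1.87e-11) and of -0.35 after the correction. *Ndufa4l2* was 6.11 to 10.6 CPM with a median of 8.07 against 3.01 to 5.41 CPM with a median of 4.06, a log2 difference of 1.06 ± 0.08 (SE, adjusted p = 1.91e-11). The tissue forms differed too, with *Cox6b2* higher (0.41) and *Cox7a1* lower (-0.61).

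In ATP synthase, all 5 subunits of the F1 head and stalk were higher in BAP1-AID (median 0.60), as were all 3 c-ring genes (median 0.41). Of all genes, 36.3% were higher and 38.6% lower. After the correction 4 of the 5 and all 3 c-ring genes passed, with medians of 0.40 and 0.29, and *Atp5e* did not (0.29, adjusted p = 0.065). *Atp5b* was 1964 to 2596 CPM with a median of 2163 in BAP1-AID and 1313 to 1429 CPM with a median of 1388 in UTX-AID, a log2 difference of 0.71 ± 0.03 (SE, adjusted p = 3.41e-17). The peripheral stalk, which holds the head against rotation, had 0 of 4 genes higher and 2 lower, *Atp5pb* and *Atp5j*, by edgeR, and both genes that did not pass were also above an unadjusted p of 0.05. *Atp5pb* was 230 to 278 CPM with a median of 255 against 325 to 349 CPM with a median of 339, a log2 difference of -0.37 ± 0.03 (SE, adjusted p = 9.87e-12). The summed share of the F1 genes was 0.38 to 0.49% of counts in BAP1-AID and 0.27 to 0.29% in UTX-AID, while that of the peripheral stalk was 0.074 to 0.092% and 0.086 to 0.093%.

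**Figure D3:**
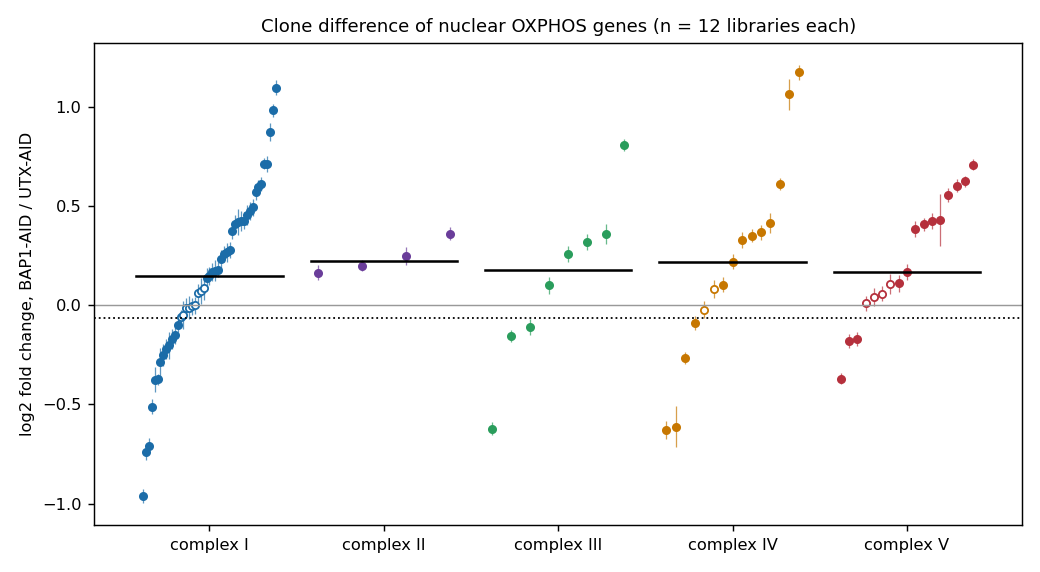
Log2 difference of BAP1-AID against UTX-AID for each member, averaged over IAA arms and RA times, by complex; bars are standard errors, filled points passed at an adjusted p below 0.05, black lines are complex medians and the dotted line is the median of all genes, -0.07. Medians lie between 0.15 for complex I and 0.22 for complex II, with members on both sides of 0 in every complex but II.

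The clone difference went with GC content across members (Spearman's rho 0.58 over 88 members, which share libraries and depth), and rho was 0.02 after the correction. The corrected fit gave 58 higher and 17 lower, the fit without the 2 libraries 51 and 26 (34.3% and 37.5% of all genes), and 47 higher and 13 lower members were shared by all 3 fits. Among these shared members, *Atp5md* (higher) and *Atp5mpl* (lower) were not adjusted by the correction, so it was no check on them. In the untreated cells at 0 h alone, 41 members were higher and 12 lower, where 52.6% of all genes passed.

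Next, the members were compared with and without IAA in BAP1-AID, averaged over RA times. The libraries include no untagged line with IAA, and the arms also differ in their trend with GC content. Loss of BAP1, IAA itself and the preparation of the libraries therefore cannot be told apart within this line. With IAA 4 members rose and 18 fell (24.2%), where 36.1% of all genes passed, 17.9% of them higher and 18.2% lower. None of the 22 exceeded 1 on the log2 scale, which 1.51% of all genes did. The median log2 difference was -0.12 over members and -0.04 over all genes. All 6 libraries with IAA lay below all 6 without it for 17 members and above for 2, against 8.26% and 7.57% of all genes. By complex, 2 rose and 10 fell in complex I, 1 fell in each of complexes II and III, 1 rose and 3 fell in complex IV, and 1 rose and 3 fell in complex V.

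The summed share of the members was lower with IAA also outside the libraries that stand apart, at 1.28 to 1.301% against 1.33 to 1.39%. Without *Atp5a1* and *Atp5b* these ranges were closer, at 0.946 to 0.959% against 0.963 to 1.001%. The direction of the members' median, however, went with the 2 libraries that stand apart. Both lack IAA and were set apart partly by their high member levels, so leaving them out raises the members' median by that choice. Without them 14 members rose and 15 fell, where 20.1% and 18.3% of all genes did, and the members' median was 0.01 beside -0.01 for all genes. Of the calls with all libraries, 4 of 4 higher and 15 of 18 lower were kept. After the correction 9 rose and 13 fell, with a median of -0.00. Across members, the IAA difference went with GC content at rho -0.41 with or without the libraries, and at rho 0.72 after the correction, so the slope over the members had the opposite sign after it. *Atp5pb* and *Ndufs1* rose and *Cox5b*, *Ndufaf7* and *Sdhc* fell in all 3 fits. Single libraries also moved the count of 22, to 59 (5 higher and 54 lower) without replicate 2 at 3 h without IAA and to 13 without replicate 1 at 6 h of either arm. It was 14 without replicate 1 at 0 h, replicate 1 at 3 h or replicate 2 at 6 h with IAA.

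*Ndufs1*, on chromosome 1 at 63182058 to 63216236 (GRCm39), was 135 to 175 CPM with a median of 153 without IAA and 175 to 184 CPM with a median of 180 with it. All libraries with IAA were above all without, and the log2 difference was 0.27 ± 0.04 (SE, adjusted p = 0.000366), or 0.23 without the 2 libraries and 0.13 after the correction. *Atp5pb*, subunit b of the peripheral stalk, was 230 to 254 CPM with a median of 247 without IAA and 257 to 278 CPM with a median of 268 with it, again with no overlap. Its log2 difference was 0.17 ± 0.04 (SE, adjusted p = 0.00428). *Ndufaf4* rose by 0.35 ± 0.06 on the log2 scale (SE, adjusted p = 0.0004), from 24.1 to 29.96 CPM without IAA to 29.9 to 35.5 CPM with it, and the arms overlapped. Its corrected difference was -0.02.

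*Ndufa8*, an accessory subunit of complex I, was 63.1 to 73.8 CPM with a median of 67.2 without IAA and 51.2 to 55.6 CPM with a median of 53.4 with it. The arms did not overlap and the log2 difference was -0.30 ± 0.05 (SE, adjusted p = 0.00033), with -0.25 without the 2 libraries and -0.11 after the correction, where the adjusted p was 0.0513. *Sdhc*, a membrane anchor of complex II, was 118.5 to 131 CPM with a median of 127 without IAA and 104 to 110.5 CPM with a median of 106 with it (log2 difference -0.19 ± 0.04 SE, adjusted p = 0.00235). *Uqcrc1* was 310 to 330.0 CPM with a median of 317.5 and 260 to 282.5 CPM with a median of 273 (log2 difference -0.20 ± 0.03 SE, adjusted p = 0.00064), and its corrected difference was 0.03. *Cox5b*, a complex IV subunit that has a near-identical copy, was 94.1 to 118 CPM with a median of 97.5 and 79.4 to 86.9 CPM with a median of 83.0 (log2 difference -0.24 ± 0.05 SE, adjusted p = 0.00454). The core subunits of complex I therefore split, with *Ndufs1* higher and *Ndufs3* (-0.13), *Ndufs7* (-0.20) and *Ndufv1* (-0.14) lower on the log2 scale. After the correction the last 3 had 0.03, 0.03 and 0.08 and did not pass (adjusted p = 0.637, 0.7 and 0.0588).

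**Figure D4:**
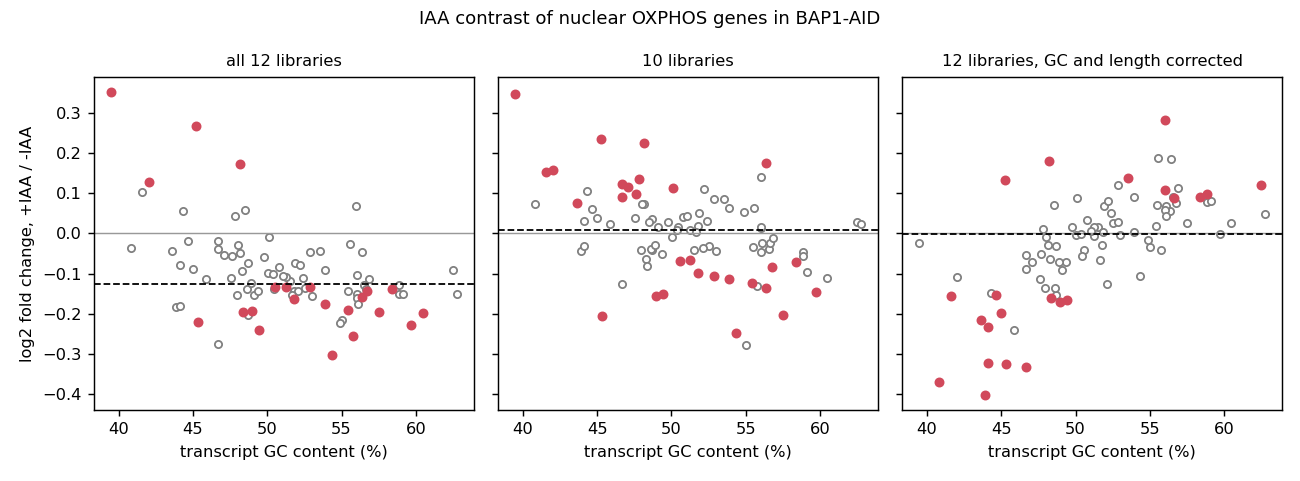
Log2 difference of +IAA against -IAA in BAP1-AID for each of 88 members against the GC content of its transcript (%), with all 12 libraries, without the 2 libraries that stand apart, and after the correction for GC content and length; red points passed at an adjusted p below 0.05 and the dashed line is the members' median. The slope is negative in the first 2 panels (rho -0.41 in both) and positive in the third (rho 0.72).

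At single RA times, 3 rose and 4 fell at 0 h (18.5% of all genes passed), 1 rose and 2 fell at 3 h (13.3%), and 1 rose and 3 fell at 6 h (12.5%). *Ndufa8* fell at each of the 3 times. Of the members called at any single time, *Ndufs1* rose at 0 h (0.40 on the log2 scale) and 3 h (0.29), and *Ndufaf4* rose at 0 h (0.32) and 6 h (0.43). Without the 2 libraries the counts of members that rose and fell were 5 and 13 at 0 h (24% of all genes passed), 4 and 4 at 3 h (16.7%), and 15 and 17 at 6 h (26.3%), so these counts at single times were not stable.

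In UTX-AID 0 of 91 members passed between the arms by edgeR, where 2.62% of all genes did, and 7 had an unadjusted p below 0.05. The smallest adjusted p was 0.112, and DESeq2 called 1 member. The median log2 difference was -0.00, and the 95% intervals of all 91 members lay within 0.5 of 0. *Ndufs1* had -0.04 ± 0.03 (SE), *Atp5pb* -0.03, *Uqcrc1* -0.02, *Sdhc* -0.00 and *Ndufaf4* -0.03 on the log2 scale. *Ndufa8* had 0.17 ± 0.06 (SE, adjusted p = 0.192), opposite in sign to BAP1-AID.

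Tested directly, the IAA difference differed between the lines for 19 members (20.9%), 4 of them higher and 15 lower in BAP1-AID, where 25.9% of all genes passed (14.9% higher and 10.9% lower). Without the 2 libraries there were 14 higher and 5 lower (14.9% and 8.49% of all genes), and after the correction 4 higher and 8 lower. *Atp5pb* and *Ndufs1* were higher and *Cox5b*, *Ndufa8* and *Ndufaf7* lower in all 3 fits. Leaving out single libraries gave 37 without BAP1-AID replicate 2 at 3 h without IAA, 10 without each of BAP1-AID replicate 1 at 0 h and replicate 1 at 6 h without IAA, BAP1-AID replicate 1 at 6 h with IAA and UTX-AID replicate 2 at 0 h without IAA, 11 without each of BAP1-AID replicate 1 at 3 h with IAA, UTX-AID replicate 1 at 3 h with IAA and UTX-AID replicate 2 at 6 h without IAA, and 12 without UTX-AID replicate 2 at 3 h without IAA.

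RA treatment was examined to see whether the genes respond as ESCs begin to leave the pluripotent state. Few members passed over 6 h. In BAP1-AID, averaged over the arms, 0 of 91 passed at 3 h by edgeR (11.2% of all genes), with 4 at an unadjusted p below 0.05, and 2 rose and 2 fell without the 2 libraries (15% of all genes). At 6 h, 5 rose and 0 fell (5.49%), where 24% of all genes passed, 14.4% of them higher and 9.67% lower. The median log2 difference was -0.02 over members and 0.01 over all genes. The 95% intervals of 90 members lay within 1 of 0 on the log2 scale, and those of 88 within 0.5.

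The 5 were *Cox7a1*, *Ndufa4l2*, *Ndufs1*, *Sdha* and *Uqcrb*. *Cox7a1* in BAP1-AID was 3.44 and 2.05 CPM without IAA and 2.77 and 1.90 CPM with it at 0 h, and 4.33, 5.01, 3.79 and 3.89 CPM at 6 h. All 6 h libraries were above all 0 h libraries, and the log2 difference was 0.76 ± 0.21 (SE, adjusted p = 0.017). *Ndufa4l2* was 6.85, 7.32, 6.29 and 6.11 CPM at 0 h and 9.27, 9.63, 6.80 and 10.6 CPM at 6 h. One 6 h library lay among the 0 h libraries, and the log2 difference was 0.47 ± 0.13 (SE, adjusted p = 0.0194). These members had the smallest counts of the set, with means of 4.33 and 6.09 CPM.

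*Uqcrb*, a small subunit at the ubiquinone site of complex III, was 105, 99.5, 106 and 115 CPM at 0 h and 119.8, 118, 119.6 and 128.5 CPM at 6 h. Its times did not overlap (log2 difference 0.22 ± 0.05 SE, adjusted p = 0.0119). *Sdha* was 225.5, 243, 227 and 237 CPM at 0 h and 258, 252, 264.5 and 256 CPM at 6 h, also with no overlap (log2 difference 0.17 ± 0.05 SE, adjusted p = 0.0213). *Ndufs1* was 135 and 143 CPM without IAA and 180.0 and 177 CPM with it at 0 h, and 175, 167, 181 and 179 CPM at 6 h (log2 difference 0.18 ± 0.05 SE, adjusted p = 0.0222). For *Ndufs1* the libraries without IAA were lower at 0 h than all others, with a log2 difference at 6 h of 0.32 without IAA (adjusted p = 0.0097) and 0.04 with it (adjusted p = 0.79); the difference between the arms did not pass with all libraries, and *Ndufs1* was among 4 members for which it passed without the 2.

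Without the 2 libraries 17 members rose and 5 fell at 6 h in BAP1-AID, where 32.6% of all genes passed, and all 5 of the first calls were kept. The 5 that fell did so by small amounts, from -0.05 for *Atp5a1* and -0.06 for *Atp5g2* to -0.07 for *Atp5b* and *Cox4i1* and -0.08 for *Ndufv1* on the log2 scale. After the correction 3 rose and 4 fell, and *Cox7a1*, *Ndufa4l2* and *Sdha* were kept. Leaving out single libraries changed the count of 5 in 11 of 12 cases. It was 0 without replicate 2 at 6 h with IAA, 1 to 3 without 8 others, 11 without replicate 1 and 12 without replicate 2 at 3 h without IAA.

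In UTX-AID 0 members passed at 3 h (8.26% of all genes), with 0 at an unadjusted p below 0.05, and 0 passed at 6 h (12.4% of all genes), with 5 at an unadjusted p below 0.05, by edgeR. *Ndufa4l2* came nearest, with a log2 difference of 0.45 ± 0.14 (SE, adjusted p = 0.0539). It was 3.65, 3.798, 3.04 and 3.01 CPM at 0 h and 4.39, 4.27, 5.41 and 4.31 CPM at 6 h, with no overlap. *Cox7a1* had 0.35 ± 0.14 (SE, adjusted p = 0.131), *Uqcrb* 0.12 ± 0.05 (SE, adjusted p = 0.134), *Ndufs1* 0.06 and *Sdha* 0.03 on the log2 scale. The 6 h difference did not differ between the lines for any member by edgeR, where 2.71% of all genes did, and 1 member had an unadjusted p below 0.05.

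**Figure D5:**
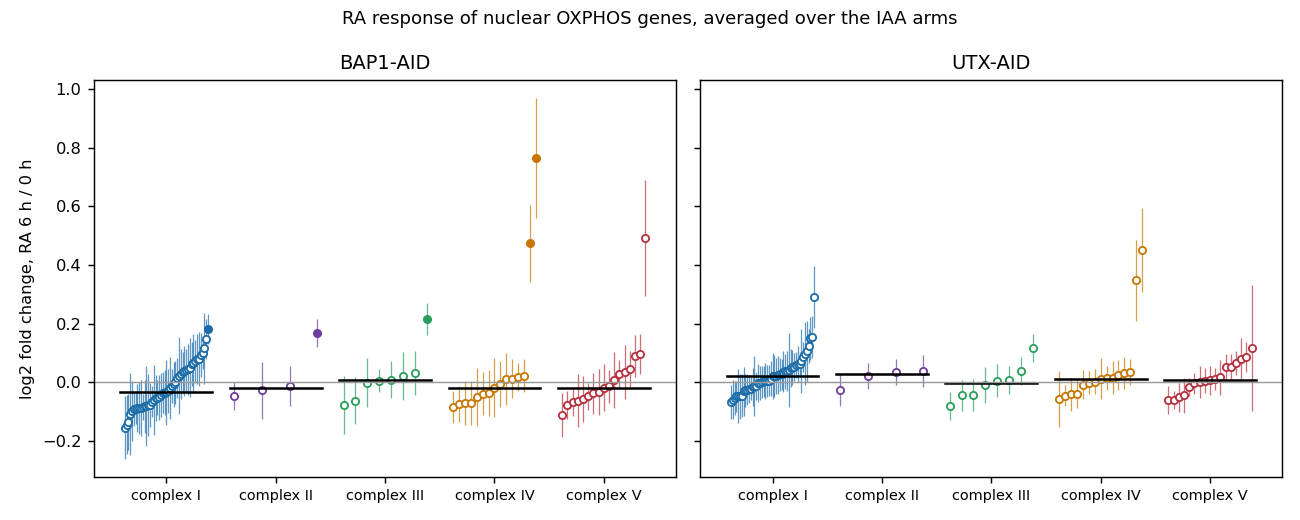
Log2 difference of 6 h against 0 h of RA for each member, averaged over the IAA arms, by complex, in BAP1-AID and in UTX-AID; bars are standard errors and filled points passed at an adjusted p below 0.05. The 5 members that passed in BAP1-AID lie above 0, and none passed in UTX-AID.

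Whether the difference between RA times differed between the IAA arms was tested as an interaction. In BAP1-AID 0 members passed at 3 h (0% of all genes) and 0 at 6 h (0.153%), with 1 and 5 at an unadjusted p below 0.05, and without the 2 libraries 3 (2.35% of all genes) and 4 (5.43%) passed. In UTX-AID 0 passed at 3 h (0.0123%) and 0 at 6 h (0%), with 5 and 5 at an unadjusted p below 0.05, all by edgeR.

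Genes that serve the same pathway were read from lists set beside the members. Among 44 electron carriers and other assembly factors, 20 were higher and 19 lower in BAP1-AID than in UTX-AID, in a comparison where 36.3% of all genes were higher and 38.6% lower. *Cycs*, cytochrome c, was 110.1 to 138 CPM with a median of 125 in BAP1-AID and 264.5 to 286.5 CPM with a median of 274 in UTX-AID (log2 difference -1.09), while *Cyc1*, cytochrome c1 of complex III, was higher (0.71). Of 17 regulators of mitochondrial gene expression, 10 were higher and 6 lower. The coactivator *Pprc1* (1.47 on the log2 scale) and the mitochondrial DNA helicase *Twnk* (0.96) were higher, and *Ssbp1*, which binds single-stranded mitochondrial DNA, was lower (-0.90). Of 13 citric acid cycle genes 7 were higher and 5 lower (median 0.28), with *Sucla2*, a subunit of succinyl-CoA ligase, at -1.06 on the log2 scale. Glycolysis had 15 of 18 higher and 3 lower (median 0.54), with *Pgam1* at 1.42, *Pfkl* at 1.08 and *Pfkp* at -1.30, and 13 higher and 3 lower after the correction. Of the 22 members with an NRF1 match, 12 were higher and 4 lower, beside 43 and 18 of the 75 with a window.

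With IAA in BAP1-AID, 3 of the carriers and assembly factors rose and 9 fell, 7 regulators rose and 2 fell, 4 citric acid cycle genes rose and 5 fell, and of glycolytic genes 0 rose and 13 fell by edgeR, where 17.9% of all genes rose and 18.2% fell. For glycolysis 1 rose and 11 fell without the 2 libraries, and 2 rose and 2 fell after the correction, while regulators gave 7 and 3, and 6 and 1. Among regulators *Gabpa* rose (0.44, adjusted p = 4.33e-06) and *Polrmt*, the mitochondrial RNA polymerase, fell (-0.62). In UTX-AID 0 genes of these 4 lists passed between the arms by edgeR, where 2.62% of all genes did, with 2 carriers and assembly factors, 4 regulators, 1 citric acid cycle gene and 4 glycolytic genes at an unadjusted p below 0.05. At 6 h of RA, *Esrra*, the estrogen-related receptor alpha, rose in BAP1-AID (log2 difference 1.00, adjusted p = 7.41e-06) and in UTX-AID (0.73), and *Gabpa* rose in both (0.43 and 0.27). The glucose transporter *Slc2a1* rose in both lines, by 1.14 and 0.93. Counted by list at 6 h in BAP1-AID, where 14.4% of all genes rose and 9.67% fell, 4 carriers and assembly factors rose and 0 fell, 3 regulators rose and 2 fell, 2 citric acid cycle genes rose and 0 fell, and 3 glycolytic genes rose and 5 fell. In UTX-AID, where 12.4% of all genes passed, these counts were 2 and 0, 2 and 0, 0 and 0, and 3 and 2, with 1 citric acid cycle gene at an unadjusted p below 0.05 by edgeR.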

How the data were processed

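RNA was extracted with TRIzol and poly(A) libraries were sequenced from 24 samples (12 groups of 2). Per the study's methods and processing notes, the authors aligned reads to mm39 with HISAT2 2.2.1 and derived estimated counts per gene with StringTie 2.2.1 (SAMtools 1.19 and deepTools 3.5.4 are also named), and deposited these estimated counts, all whole numbers, in 1 table. The annotation, strand setting and the vehicle of the samples without IAA are not given in the sources used here. StringTie derives counts from coverage, so near-identical copies and overlapping genes can share reads.

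Totals were 42018795 to 54034789 counts per library, and the floor of 3 counts covers counting error only. CPM is per 1000000 assigned counts. Counts were tested with edgeR 4.0.16 (R 4.3.3) using the quasi-likelihood test, TMM scaling and filterByExpr (minimum count 10, minimum total 15), in a fit per line (15695 genes in BAP1-AID, 16268 in UTX-AID) and, for comparisons of the lines, in a fit of all libraries (16816 genes), with Benjamini-Hochberg adjustment over all genes of the fit. The common biological variation was 11.6% (BAP1-AID) and 11.9% (UTX-AID). Alternatives were DESeq2 1.42.0, RLE scaling, no filter, a replicate block, a fit of all libraries, leaving out each library, and per-library splines on GC content and transcript length (GENCODE vM39, 88 members matched) as offsets. The omission of 2 libraries and of copied genes was added after the data were seen. Copies were located with minimap2 2.31. On simulated counts with the BAP1-AID libraries' sizes, 75 of 100 genes changed by 0.5 and 94 of 100 changed by 1 on the log2 scale were recovered for 6 h of RA. There were 12 false calls. The simulated counts held no trend with GC content or length and no library that stands apart, unlike the BAP1-AID data.

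The members, lists and motifs were chosen with earlier results of these data known. Named members were the 3 per direction with the smallest adjusted p in each comparison, subunits with tissue forms, a set of core subunits (among them *Ndufs1*, *Ndufv1*, *Ndufab1*, *Sdha* to *Sdhd*, *Uqcrfs1*, *Uqcrc1*, *Uqcrc2*, *Cox5a*, *Cox5b* and *Atp5b*), the highest of each complex, and up to 3 genes per list. Other members were named after their values were seen, among them *Ndufs3*, *Ndufs7*, *Ndufs8*, *Ndufaf1*, *Ndufaf2*, *Ndufaf5*, *Ndufaf7*, *Atp5j*, *Atp5a1* and those shown for a level or a promoter. A withheld item is not reported here.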

Additional observations from a re-analysis of the deposited data

Results flagged for a closer look

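The IAA difference itself differed between the lines by the interaction test (edgeR, adjusted over all genes) for 19 members. Among those named, the log2 difference of BAP1-AID over UTX-AID was 0.33 for *Ndufs1* (0.326, adjusted p = 0.000164), 0.40 for *Ndufaf4* (0.4036, adjusted p = 0.000166), -0.45 for *Ndufa8* (-0.4533, adjusted p = 0.000177), 0.22 for *Atp5pb* (0.216, adjusted p = 0.00369), -0.28 for *Cox5b* (-0.2806, adjusted p = 0.00623) and -0.33 for *Ndufs7* (-0.3288, adjusted p = 0.00721). Without the 2 libraries that stand apart the values were 0.30, 0.40, -0.40, 0.27, -0.19 and -0.24, and *Ndufs7* no longer passed (adjusted p = 0.0554). After the correction for GC content and length they were 0.18 for *Ndufs1*, -0.01 for *Ndufaf4*, -0.26 for *Ndufa8*, 0.23 for *Atp5pb*, -0.20 for *Cox5b* and -0.12 for *Ndufs7*. *Ndufaf4* (adjusted p = 0.988) and *Ndufs7* (adjusted p = 0.283) did not pass there.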

How the results depend on the processing

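Counts of members passing are compared here across settings, and the cause of each change was not tested. They are given without the share of all genes in each setting, so they show only how the members' counts moved. For 6 h of RA in BAP1-AID (5) the count was 7 after the GC content and length correction (3 higher and 4 lower), 22 without the 2 libraries, 15 with both and 0 with a fold above 1; for 3 h (0) it was 1 in a fit of all 24 libraries, 4 without the 2 and 8 with both. Its interactions with IAA (0 and 0) gave 3 at 3 h without the 2 libraries, and 4 at 6 h, or 5 with the correction. For IAA in BAP1-AID (22) the count was 39 with both changes (25 higher and 14 lower) and 0 with the fold. At single times the balance of directions turned with 5 (RLE) and 6 (all 24 libraries) at 0 h, 5 (all 24) and 13 (both changes) at 3 h, and 2 (correction), 3 (correction and block) and 3 (all 24) at 6 h. For 6 h of RA in UTX-AID (0) all 24 libraries gave 1, and for IAA in UTX-AID (0) DESeq2 gave 1. The clone count (76) was 3 with the fold. The difference of the IAA effect (19) was 12 after the correction, 19 without the 2 libraries with directions turned (14 higher and 5 lower), and 0 with the fold.

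Leaving out 1 library gave 0 to 7 for 3 h and 0 to 12 for 6 h of RA in BAP1-AID, 0 to 1 for the 6 h interaction, 13 to 59 for IAA, 0 to 1 for 6 h of RA and for IAA in UTX-AID, 73 to 80 for the clones and 10 to 37 for the difference of the IAA effect, and 0 elsewhere. For IAA in BAP1-AID at single times it gave 1 to 26 at 0 h, 0 to 62 at 3 h and 0 to 15 at 6 h, with directions turned at 1, 2 and 4 at 0 h, 3 at 3 h and 1 at 6 h.

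When replicate numbers were blocked, the counts were 5 for 6 h of RA and 25 for IAA in BAP1-AID, 1 for 6 h of RA in UTX-AID (2 with the correction), 77 for the clones, 21 for the difference of the IAA effect, and 0 in the other comparisons averaged over arms or times; IAA in UTX-AID gave 1 with the block and the correction. Gene by gene, the deviations of same-numbered samples hardly correlated (r from -0.04 to 0.06 in BAP1-AID and -0.01 to 0.07 in UTX-AID over 15 pairs of groups each), and the main fits do not pair the samples. The trend with GC content did go with the number in UTX-AID, where rho was 0.06 to 0.13 in replicates 1 and -0.21 to -0.01 in replicates 2. Both libraries that stand apart in BAP1-AID are replicates 1. Whether the numbers mark a shared preparation was not tested.

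Of the values of the members with the smallest adjusted p in each comparison, recomputed under every setting, 529 kept their direction and side of the threshold, 23 no longer passed and 9 turned sign. The turned values, all with the correction, were -0.0248, -0.0245 (with block) and -0.0384 (without the 2 libraries) for *Ndufaf4* and 0.0252 and 0.0268 (with block) for *Uqcrc1* with IAA in BAP1-AID, 0.1141 and 0.1138 (with block) for *Ndufaf4* between the clones, and -0.0146 and -0.0148 (with block) for *Ndufaf4* in the difference of the IAA effect. With 2 replicates a group, differences under 0.5 on the log2 scale could be missed.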
